A study of Mus musculus with 4 samples.

Results

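The 10 genes described here encode enzymes and receptors of prostaglandin signalling: the phospholipase Pla2g4a, the cyclooxygenases Ptgs1 and Ptgs2, the terminal synthases Ptges and Ptgis, the clearance enzyme Hpgd, and the receptors Ptger2, Ptger3, Ptger4 and Ptgfr. They were taken by symbol from a table of 54152 genes, and all 10 were present and passed the filter on low counts. RNA of whole uteri from C57 mice on day 4 of pregnancy was sequenced in 2 libraries labelled p38α dd and 2 labelled p38α ff, and the series title contrasts knockout with wild-type uteri. The promoter or Cre line behind the deletion, the deleted exons, the age of the mice and whether a library is 1 animal or a pool are not stated in the labels, so p-values measure the spread between these libraries only, which may be technical.

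Prostaglandins are lipid signals made on demand. Cytosolic phospholipase A2 frees arachidonic acid from membranes, cyclooxygenases turn it into an unstable intermediate, terminal synthases convert that into individual prostaglandins, and G protein-coupled receptors on nearby cells read them before transporters and dehydrogenases remove them. In the mouse uterus the system is known for its part in embryo implantation and decidualization: Pla2g4a and Ptgs2 are needed for normal implantation, Ptgs1 is made in the epithelium before the embryo attaches, and Ptgs2 appears around the implanting embryo.

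The libraries held between 24619850 and 32451670 counts, and a count of 3 corresponded to at most 0.127 CPM, the count scaled to library size with TMM factors. Mapk14, the gene of p38α, had 105 and 113 CPM in the libraries labelled dd, against 92.3 and 87.0 CPM in those labelled ff (log2 change 0.28, SE 0.09, edgeR adjusted p = 0.120). Losing a few exons need not lower a whole-gene count. The labels are therefore not borne out by the whole-gene count of the targeted gene, and every direction below rests on them. With edgeR's quasi-likelihood test at an adjusted p under 0.05, 8.39% of 18530 tested genes were called, 4.52% higher and 3.86% lower in dd. The split between higher and lower calls depended on the scaling, with 53.9% of calls higher under TMM 47.4% under upper quartile scaling and 42.4% under library size alone. Epithelial markers were higher in dd (all 14 above 0, 7 called, summed level 3136 and 3642 CPM against 1302 and 1588 CPM in ff). Stromal markers (5 of 12 called lower, 11442 and 7931 CPM in dd against 16659 and 14757 CPM in ff) and endothelial markers (10 of 12 called lower, 904 and 914 CPM in dd against 1910 and 1625 CPM in ff) were lower. In whole tissue, fewer cells of a type and less RNA per cell cannot be told apart.

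Both cyclooxygenase genes rose in the libraries labelled dd, and the receptor genes Ptgfr and Ptger3 fell, while the other 6 members were not called. Thus 2 of 10 members were called higher against 4.52% of all tested genes, and 2 of 10 lower against 3.86%, with a median log2 change of −0.09 for the members and 0.00 for all genes. Members and the gene lists below were chosen with earlier results of these data known, so such shares are description only. Both dd libraries lay above both ff libraries for 3 members, where 31.6% of all genes did so, and below them for 4, where 31.3% did. With DESeq2, which called 8.55% of genes higher and 7.65% lower, 2 members were again higher and 2 lower.

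**Figure D1:**
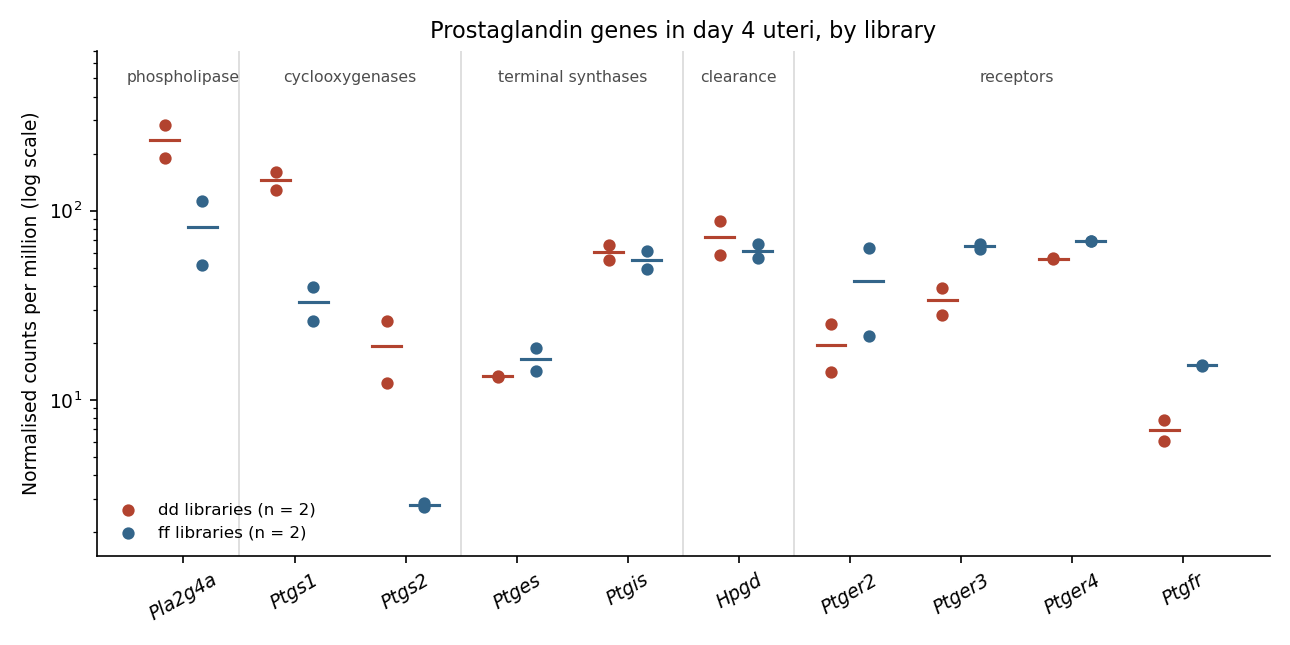
Normalised CPM on a log scale of the 10 prostaglandin genes, with 1 point per library, dd in red and ff in blue, and a bar at each group mean (n = 2). Ptgs1 and Ptgs2 stand higher in dd, Ptgfr and Ptger3 stand lower, and the 2 groups overlap for Ptgis, Hpgd and Ptger2.

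Ptgs1, the cyclooxygenase usually described as constitutive, had 129 and 160 CPM in the libraries labelled dd, against 26.3 and 39.6 CPM in those labelled ff. The lower dd library was more than 3 times the higher ff library. The fold was 4.39, with a log2 change of 2.13 (SE 0.23, 95% interval 1.53 to 2.74, edgeR adjusted p = 0.0227). Its log2 change lay between 1.87 and 2.46 with any 1 library left out, and the call was narrowly missed without dd replicate 2 (edgeR adjusted p = 0.0503) or ff replicate 1 (edgeR adjusted p = 0.0504).

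Ptgs2, the inducible cyclooxygenase, was far less abundant, with 291 and 794 counts in dd against 90 and 89 in ff. That is 12.3 and 26.2 CPM in dd and 2.70 and 2.86 CPM in ff, so that the ff libraries nearly coincided and the dd libraries differed from each other more than 2-fold. Its log2 change was 2.79 (SE 0.41, 95% interval 1.74 to 3.85, edgeR adjusted p = 0.0301). The log2 change dropped to 2.15 with dd replicate 2 left out and reached 3.24 with dd replicate 1 left out, and the call was lost without ff replicate 1 (edgeR adjusted p = 0.112) or ff replicate 2 (edgeR adjusted p = 0.0656). Per length, Ptgs1 remained the main cyclooxygenase transcript in every library, with Ptgs2 at 7.49% and 12.2% of their summed FPKM (the deposited values scaled for gene length and depth) in dd and 8.03% and 5.76% in ff.

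Ptgs1 lies on chromosome 2 (36230426 to 36252272, plus strand, mm10) and Ptgs2 on chromosome 1 (150100031 to 150108227, plus strand). Their promoters are shown because the transcripts moved together although the genes lie on different chromosomes. Each window runs from 250 bases before to 30 bases after the RefSeq start (GRCm38.p6, the same build), Ptgs1 at chr2:36230176-36230455 and Ptgs2 at chr1:150099781-150100060. Capitals mark matches on either strand to TATAAA (the TATA box), to the GC box letters GGGCGG, to TGACG (part of the cyclic AMP response element) or to the AP-1 element TGANTCA.
Ptgs1: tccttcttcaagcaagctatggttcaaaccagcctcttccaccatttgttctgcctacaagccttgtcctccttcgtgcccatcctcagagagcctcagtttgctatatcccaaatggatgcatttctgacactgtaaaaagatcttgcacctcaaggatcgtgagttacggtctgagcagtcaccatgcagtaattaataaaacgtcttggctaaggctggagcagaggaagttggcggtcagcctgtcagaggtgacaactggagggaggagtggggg
Ptgs2: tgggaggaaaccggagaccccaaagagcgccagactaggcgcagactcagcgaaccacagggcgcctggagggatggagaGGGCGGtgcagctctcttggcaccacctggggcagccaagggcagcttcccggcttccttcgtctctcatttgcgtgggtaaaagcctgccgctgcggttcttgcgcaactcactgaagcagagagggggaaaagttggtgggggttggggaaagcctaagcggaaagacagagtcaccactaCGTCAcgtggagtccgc
The Ptgs1 window has 49.6% G and C and held none of these letters. The Ptgs2 window has 61.4% G and C and held 1 GGGCGG at −170 and 1 TGACG on the minus strand starting at 14, whose bases overlap a CANNTG match (the E box pattern) at 17. Both windows held 3 CANNTG matches, those of Ptgs1 at −208, −139 and 9. Positions are counted from 1 at the start site, with negative numbers before it. Of 32851 RefSeq windows of this length, 34.7% held the GC box letters, 19.9% the cyclic AMP element part, 7.46% the AP-1 element and 13.1% the TATA box; CANNTG was found in 70.1%.

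Pla2g4a, which releases the arachidonic acid that both cyclooxygenases use, lies next to Ptgs2 on chromosome 1 (149829618 to 149961290, minus strand). The gap between the genes is 138.7 kb and holds no other protein-coding gene in GENCODE M21. The non-coding locus Ptgs2os in that gap had 2 and 6 counts in dd against 2 and 2 in ff. Pla2g4a had 189 and 284 CPM in dd and 51.7 and 112 CPM in ff, without overlap. The log2 change was 1.53 (SE 0.42, 95% interval 0.46 to 2.61) and missed the threshold (edgeR adjusted p = 0.0900). The ff libraries differed from each other more than 2-fold: the log2 change was 2.19 without ff replicate 2, where it passed (edgeR adjusted p = 0.0341), and 1.08 without ff replicate 1. In the authors' deposited table Pla2g4a has a fold of 2.90 (unadjusted p = 0.00110). With no filter on low counts, Pla2g4a was called (log2 change 1.53, edgeR adjusted p = 0.00880).

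The terminal synthases and the clearance enzyme among the members were not called. Ptges, an inducible prostaglandin E synthase, had 13.2 and 13.3 CPM in dd against 18.7 and 14.3 CPM in ff (log2 change −0.31, 95% interval −0.77 to 0.15, edgeR adjusted p = 0.305). Ptgis, the prostacyclin synthase, had 65.6 and 54.6 CPM in dd against 61.1 and 49.1 CPM in ff, with overlapping groups (log2 change 0.12, 95% interval −0.27 to 0.52). Hpgd, the dehydrogenase that starts prostaglandin breakdown, had 87.7 and 58.1 CPM in dd against 56.2 and 66.6 CPM in ff (log2 change 0.25, 95% interval −0.32 to 0.81). The intervals of Ptges, Ptgis and Hpgd do not reach a doubling or a fall to 0.5 of the level, and that of Ptgs1 lies wholly above a doubling. The ratio of Ptgs1 to Hpgd FPKM was 0.637 and 1.19 in dd against 0.202 and 0.258 in ff, and that of Ptgs1 to Ptgis 1.30 and 1.94 in dd against 0.284 and 0.534 in ff.

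Among receptors, Ptgfr, the receptor of prostaglandin F2α known for contraction of the myometrium and regression of the corpus luteum, fell to 6.95 ± 1.24 CPM in dd, against 15.2 ± 0.164 CPM in ff (SD, n = 2). Its libraries had 185 and 184 counts in dd and 510 and 470 in ff. The log2 change was −1.13 (SE 0.19, 95% interval −1.61 to −0.65, edgeR adjusted p = 0.0362). Direction and rough size were kept with any 1 library left out (log2 −1.32 to −0.96), but none of those 4 fits passed (edgeR adjusted p between 0.0550 and 0.124).

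Ptger3, the receptor of prostaglandin E2 that couples to inhibition of cyclic AMP, fell to 33.6 ± 7.86 CPM in dd, against 64.9 ± 2.96 CPM in ff (SD, n = 2). It had 39.1 and 28.0 CPM in the dd libraries and 67.0 and 62.8 CPM in the ff libraries. The log2 change was −0.95 (SE 0.18, 95% interval −1.41 to −0.50, edgeR adjusted p = 0.0432). The call was kept only without dd replicate 1 (log2 −1.21, edgeR adjusted p = 0.0333); the other 3 fits gave adjusted p between 0.0777 and 0.142.

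Ptger4 and Ptger2, the E2 receptors that raise cyclic AMP, were not called. Ptger4 was tightly replicated, with 55.9 and 55.6 CPM in dd and 69.1 and 68.9 CPM in ff, and its small log2 change, −0.31 (SE 0.08, 95% interval −0.51 to −0.11), missed the threshold (edgeR adjusted p = 0.0790) except under library size alone (log2 −0.39, edgeR adjusted p = 0.0499). Ptger2 had 14.0 and 25.1 CPM in dd against 63.3 and 21.7 CPM in ff. Its ff replicate 2 lay within the dd range and its ff replicate 1 about 3 times higher, so its log2 change of −1.12 (SE 0.57, edgeR adjusted p = 0.264) was smaller than the gap between the ff libraries and was −0.14 without ff replicate 1. In the authors' deposited table Ptger2 has a fold of 0.461 (unadjusted p = 0.0168), close to the values there for Ptgfr (0.457 and 0.0170), whose libraries lay close together within each group.

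Ptgfr (chromosome 3, 151796502 to 151837630, minus strand) and Ptger3 (chromosome 3, 157566892 to 157645888, plus strand) lie 5729 kb apart with 25 protein-coding genes between them. Their windows, Ptgfr at chr3:151837499-151837778 on the minus strand and Ptger3 at chr3:157566626-157566905 on the plus strand, are shown with the same capitals as the pair of transcripts that moved the other way.
Ptgfr: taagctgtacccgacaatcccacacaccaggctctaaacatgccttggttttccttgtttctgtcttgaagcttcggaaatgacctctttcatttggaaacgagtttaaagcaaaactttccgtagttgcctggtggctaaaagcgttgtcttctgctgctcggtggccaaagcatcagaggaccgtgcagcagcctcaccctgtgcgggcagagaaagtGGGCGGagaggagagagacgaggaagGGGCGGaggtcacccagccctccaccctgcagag
Ptger3: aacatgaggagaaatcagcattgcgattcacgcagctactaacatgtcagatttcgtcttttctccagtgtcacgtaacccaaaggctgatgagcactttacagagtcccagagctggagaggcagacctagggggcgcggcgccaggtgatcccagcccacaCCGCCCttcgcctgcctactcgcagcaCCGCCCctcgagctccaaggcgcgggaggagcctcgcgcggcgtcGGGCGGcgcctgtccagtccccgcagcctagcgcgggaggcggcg
Ptgfr held 2 GGGCGG matches and Ptger3 held 3, and neither held a match to the cyclic AMP, AP-1 or TATA letters. The GENCODE gene of Ptgfr begins, on the minus strand, at 151837630, inside this window. Part of the window before the RefSeq start, with both GGGCGG matches, thus lies within that annotated gene. A RefSeq window was matched for 9 of the 10 members, all but Ptgis, and GGGCGG was also found in those of Ptges, Hpgd and Ptger4.

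**Figure D2:**
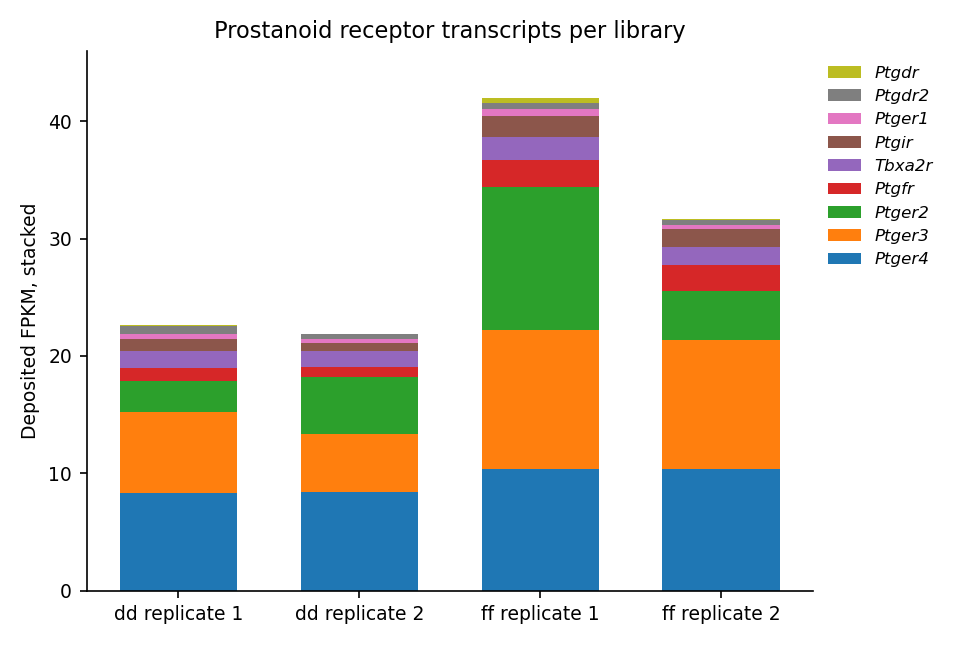
Deposited FPKM of the 9 prostanoid receptor genes, stacked for each library, dd on the left and ff on the right. The stacks reach 22.6 and 21.9 FPKM in dd, against 42.0 and 31.7 FPKM in ff, and most of the difference between the ff stacks is Ptger2.

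Taken per length over all 9 prostanoid receptor genes, the receptors summed to 22.6 and 21.9 FPKM in dd and 42.0 and 31.7 FPKM in ff. Of these 9 genes, 8 had a log2 change below 0 and 2, the members Ptgfr and Ptger3, were called lower, where 3.86% of all tested genes were, with a median of −0.95 against 0.00 for all tested genes. Ptger4 was the largest part in dd, at 36.9% and 38.3%, against 24.8% and 32.7% in ff. Ptger3 took 30.2% and 22.6% in dd and 28.1% and 34.8% in ff, so its part of the sum overlapped between groups. Ptgir, the prostacyclin receptor, had 3.22 and 2.41 CPM in dd against 6.01 and 4.98 CPM in ff and did not pass (log2 change −0.97, edgeR adjusted p = 0.0895). Ptgdr, a receptor of prostaglandin D2, had 5 and 0 counts in dd against 51 and 11 in ff. Ptgdr2, the other D2 receptor, was the exception in direction, at a log2 change of 0.43 (edgeR adjusted p = 0.407).

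In the order of levels per length, Hpgd was highest in both groups, at 43.2 ± 12.1 FPKM in dd and 36.4 ± 4.27 FPKM in ff (SD, n = 2). In dd it was followed by Ptgs1 (37.2 ± 5.88 FPKM) and Pla2g4a (37.0 ± 10.8 FPKM), and the libraries of these 3 genes overlapped. In ff the order after Hpgd was Ptgis (21.4 ± 3.36 FPKM), Pla2g4a (12.8 ± 6.65 FPKM), Ptger3 (11.4 ± 0.544 FPKM) and Ptger4 (10.4 ± 0.0417 FPKM), with Ptgs1 only sixth (8.47 ± 2.41 FPKM) and overlapping Ptger2. The ff libraries of Pla2g4a, at 8.09 and 17.5 FPKM, spanned those of Ptger3 and Ptger4 and overlapped those of Ptgs1, so its place in this order is not firm. Ptgs2 was the lowest member in ff (0.606 ± 0.0225 FPKM). In dd its 4.21 ± 2.17 FPKM overlapped Ptger3 and Ptger2, and Ptgfr was lowest (1.02 ± 0.175 FPKM).

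Beyond the members, 35 further prostaglandin pathway genes were present and 33 of them were tested. Of these 33 genes, 3 were called higher, against 4.52% of all tested genes, and 1 lower, against 3.86% (median log2 change 0.04, and 0.00 for all genes). The 1 lower call is near that background. The largest increase was in Pla2g5, a secreted phospholipase A2, with 442 and 937 counts in dd against 37 and 106 in ff. It had 24.8 ± 8.64 CPM in dd and 2.26 ± 1.62 CPM in ff (SD, n = 2), a fold of 11.0 and a log2 change of 3.46 (SE 0.58, edgeR adjusted p = 0.0369). The call was kept only without ff replicate 2 (log2 4.47, edgeR adjusted p = 0.0228), and the log2 change was 2.87 without ff replicate 1. Pla2g5 (chromosome 4, 138799244 to 138863482, minus strand) overlaps Pla2g2a on the other strand, which had no count in any library. The other 8 tested phospholipases of the pathway list were not called.

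The other called pathway genes are transporters. Slco2a1, the prostaglandin uptake transporter, fell to 25.5 and 31.3 CPM in dd, against 98.0 and 59.8 CPM in ff (log2 change −1.47, SE 0.26, edgeR adjusted p = 0.0414). Abcc4, an efflux pump that exports prostaglandins among other molecules, rose to 133 and 145 CPM in dd, against 68.7 and 71.1 CPM in ff (log2 change 0.99, SE 0.09, edgeR adjusted p = 0.0177). Slco3a1, an organic anion transporter that can carry prostaglandins, rose to 41.7 and 51.8 CPM in dd, against 22.8 and 23.8 CPM in ff (log2 change 1.01, edgeR adjusted p = 0.0274). Per length, Abcc4 exceeded Slco2a1 by 11.0 and 9.82 times in dd and by 1.49 and 2.52 times in ff. Abcc4 passed with each of dd replicate 1, dd replicate 2 and ff replicate 2 left out but not without ff replicate 1 (edgeR adjusted p = 0.0655). Slco2a1 passed only without ff replicate 2 (edgeR adjusted p = 0.0188), and Slco3a1 only without dd replicate 1 (edgeR adjusted p = 0.0329).

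Ptgr1 and Ptgds lay just beyond the threshold. Ptgr1, a reductase that inactivates prostaglandin metabolites, had 58.5 ± 17.6 CPM in dd and 22.6 ± 5.54 CPM in ff (SD, n = 2; log2 change 1.37, edgeR adjusted p = 0.0507). Ptgds, a prostaglandin D synthase, had 64 and 79 counts in dd against 8 and 22 in ff (log2 change 2.49, edgeR adjusted p = 0.0536). None of the 11 further terminal synthases was called by edgeR; the most abundant, Ptges3 (the cytosolic prostaglandin E synthase, also the chaperone p23), had 192 and 195 CPM in dd against 178 and 148 CPM in ff. Akr1b3, the aldose reductase that can make prostaglandin F2α, had 84.7 and 85.7 CPM in dd against 79.6 and 77.0 CPM in ff.

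**Figure D3:**
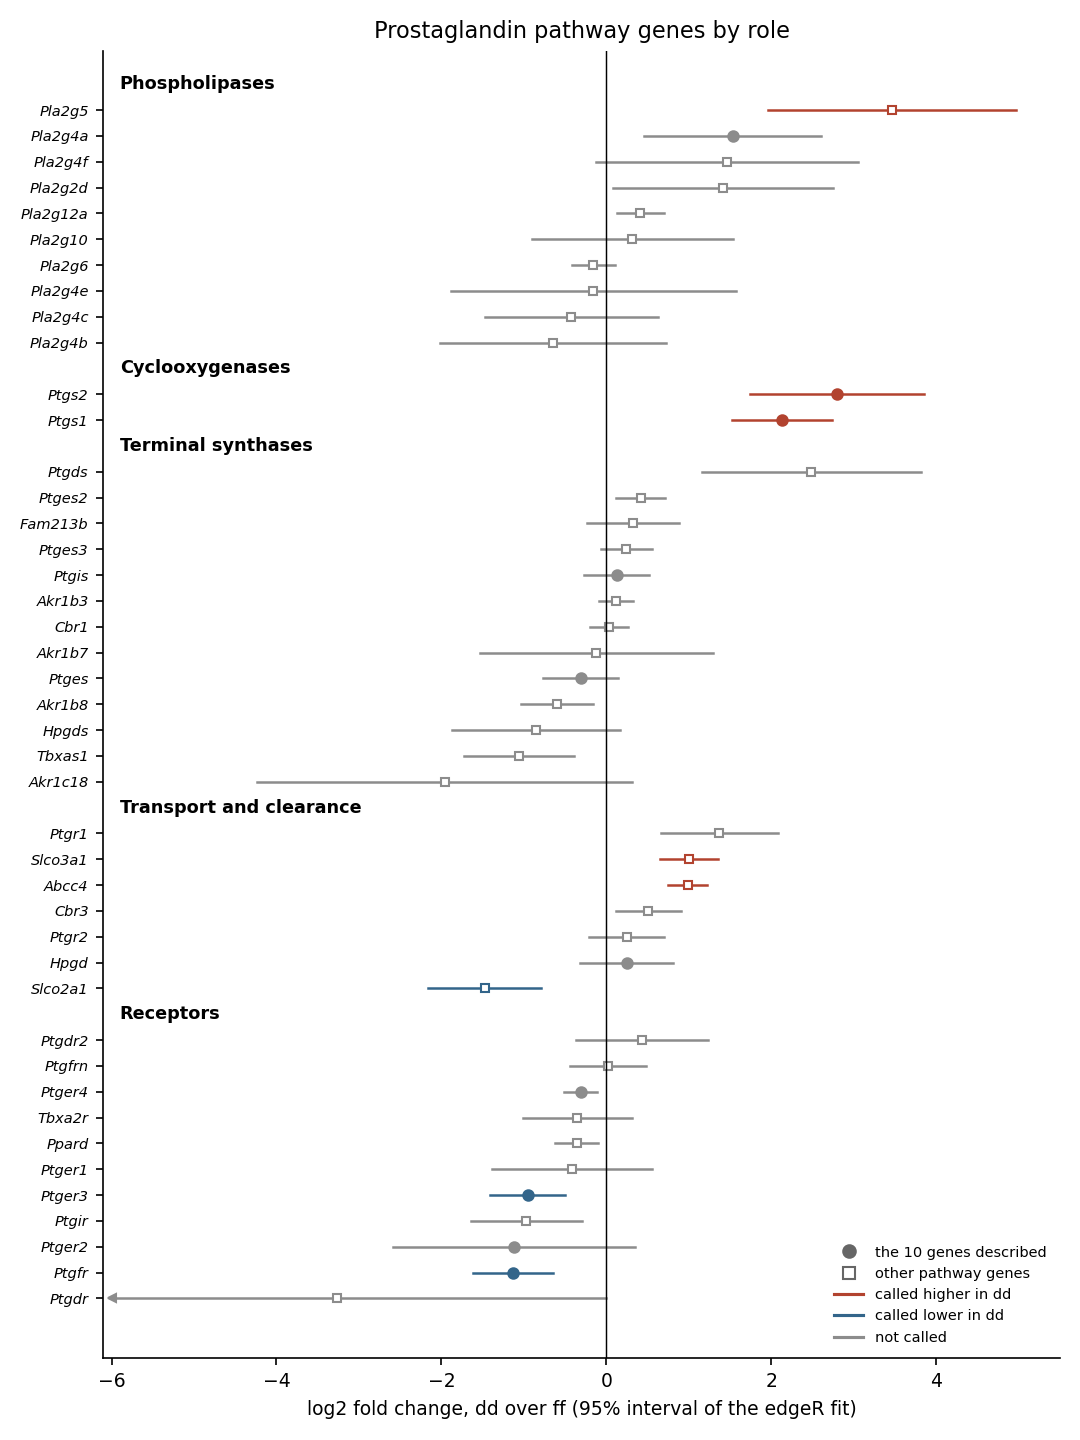
Change between dd and ff on the log2 scale (x axis, positive where dd is higher) with its 95% interval from the edgeR fit, for the 10 prostaglandin genes (circles) and 33 further pathway genes (squares), grouped by role. Coloured genes were called: Pla2g5, Ptgs1, Ptgs2, Abcc4 and Slco3a1 lie to the right of 0, and Slco2a1, Ptger3 and Ptgfr to the left. An arrowhead marks an interval that runs past the axis.

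Since epithelial markers were higher and stromal and endothelial markers lower in dd, member CPM were also expressed relative to the summed CPM of each marker list, a scale added after the values were seen and used without a test. Relative to epithelial markers, Ptgs1 was still higher, at 4.11% and 4.39% of their sum in dd against 2.02% and 2.49% in ff, and Ptgs2 at 0.393% and 0.720% in dd against 0.208% and 0.180% in ff. The same held with Krt19, the marker with the largest sum in dd, left out of the sum (Ptgs1 5.12% and 5.60% in dd against 2.09% and 2.73% in ff). The markers did not rise alike, with a log2 change of 2.93 for Krt19, 1.55 for Krt8 and 0.29 for Cldn3. That of Krt19 exceeded the 2.13 of Ptgs1 and the 2.79 of Ptgs2, so these percentages depend on the markers summed. Relative to the full epithelial sum, Pla2g4a overlapped between groups, at 6.03% and 7.81% in dd against 3.97% and 7.05% in ff. Abcc4 was below ff relative to epithelial markers (4.22% and 3.98% in dd against 5.27% and 4.48% in ff) and overlapped once Krt19 was left out (5.26% and 5.08% in dd against 5.47% and 4.90% in ff). Slco3a1 did likewise, at 1.33% and 1.42% in dd against 1.751% and 1.498% in ff, and it too overlapped without Krt19.

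Relative to endothelial markers the called receptors no longer separated the groups. Ptgfr was at 0.867% and 0.665% of their sum in dd against 0.802% and 0.929% in ff, and Ptger3 at 4.33% and 3.06% in dd against 3.51% and 3.87% in ff. Relative to stromal markers both remained lower in dd, Ptgfr at 0.0684% and 0.0766% in dd against 0.0920% and 0.102% in ff, and Ptger3 at 0.342% and 0.353% in dd against 0.402% and 0.426% in ff. None of the 10 myometrial markers was called, but their sums differed widely within dd. They were 12792 and 7329 CPM in dd, on either side of 9368 and 8122 CPM in ff. Relative to these sums the gap was wider: Ptgfr was at 0.0612% and 0.0829% in dd against 0.164% and 0.186% in ff. Slco2a1 stayed below ff relative to the epithelial, stromal, endothelial and myometrial sums, by little for endothelial markers (2.83% and 3.43% in dd against 5.13% and 3.68% in ff). The uncalled members Ptger4, Ptges, Ptgis and Hpgd lay lower in dd relative to epithelial markers and higher relative to stromal and endothelial markers. The part that cell composition has in these differences was not tested.

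**Figure D4:**
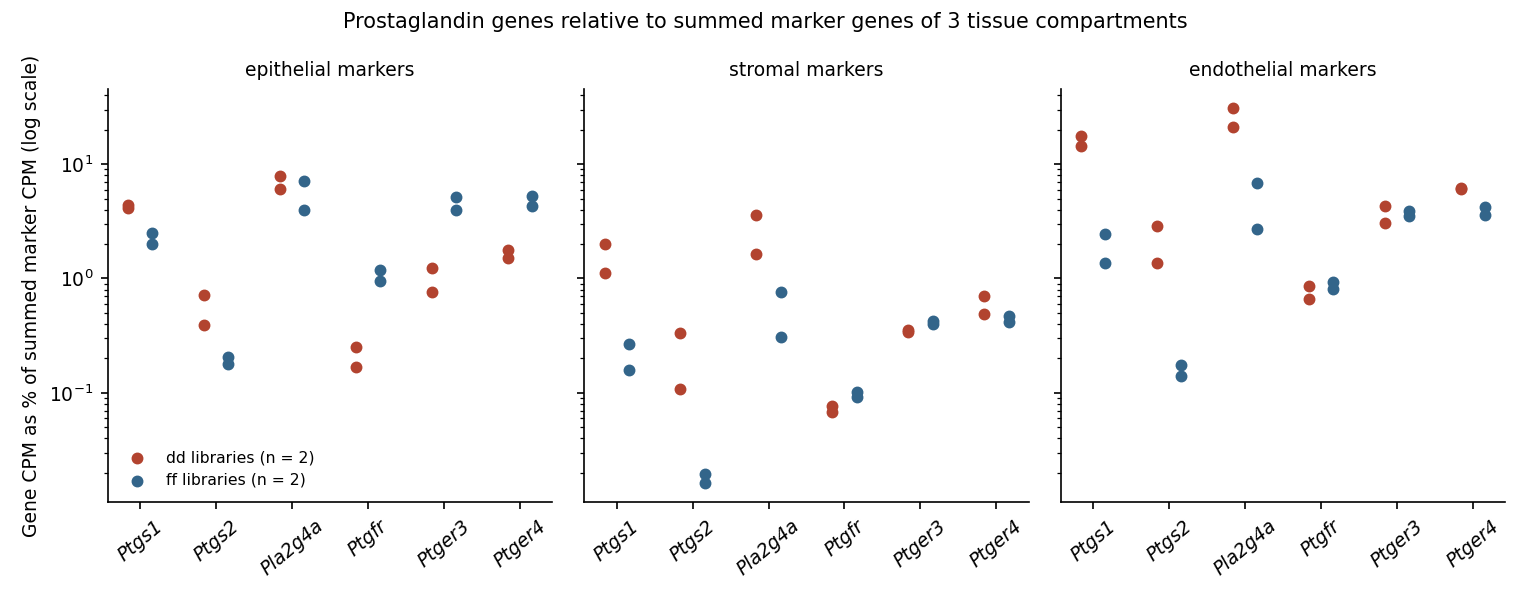
CPM of 6 prostaglandin genes as a percentage of the summed CPM of epithelial, stromal and endothelial marker genes (log scale), 1 point per library, dd left of ff. Ptgs1 and Ptgs2 lie higher in dd in each panel, Pla2g4a overlaps in the epithelial panel, and Ptgfr and Ptger3 overlap in the endothelial panel. Ptger4 lies lower in dd in the epithelial panel and higher in the stromal and endothelial panels.

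Markers of tissues that could be carried along gave values of their own. The oviduct markers Ovgp1, Pax2 and Foxj1 were higher in dd, with 3 of 3 called. Their sums were 209 and 215 CPM in dd against 49.6 and 65.8 CPM in ff. Epithelial markers were also higher in dd, and whether these 3 transcripts came from oviduct was not tested. Red cell markers were likewise higher, with 4 of 5 tested genes called and sums of 238 and 306 CPM in dd against 69.2 and 68.0 CPM in ff. Platelet markers, relevant because platelets are rich in Ptgs1, summed to 25.2 and 18.8 CPM in dd against 19.9 and 17.4 CPM in ff, with none of the 3 tested genes called. Markers of ovary and corpus luteum, a site of Ptgfr, summed to 33.1 and 30.8 CPM in dd against 25.6 and 24.8 CPM in ff, with Star called higher and Hsd3b1 without a count. Of the 4 tested genes of that list, Star had a log2 change above 0 and the other 3 had one below 0 (median −0.21). Of 10 macrophage markers 9 had a log2 change below 0 and 5 were called lower, while Cd14 was above 0 (log2 change 1.09, edgeR adjusted p = 0.0604). Mast cell and neutrophil markers were not called. Of the mast cell markers tested, 4 of 5 had a log2 change above 0 (median 1.14). The most abundant, Kit, went the other way (log2 change −0.79, edgeR adjusted p = 0.157). Mast cell marker sums were 67.8 and 43.4 CPM in dd against 85.1 and 47.7 CPM in ff. Of the neutrophil markers 3 of 4 had a log2 change below 0. Of 5 tested gland markers 3 had a log2 change above 0 and 2 below (median 0.53), and Spink1 alone was called, lower in dd. The gland marker Prss29 had 0 and 0 counts in dd against 4319 and 10 in ff, so ff replicate 1 stood apart from the other 3 libraries. The part of oviduct and blood in the changes of Ptgs1 and Ptgs2 was not tested.

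Several members overlap loci on the opposite strand, and the labels do not say whether counting used strand. Gm43621, opposite Ptgs1, had 2.07 and 1.91 CPM in dd against 0.691 and 0.706 CPM in ff, and Gm43618, opposite Ptgfr, had 0.508 and 0.396 CPM in dd against 1.35 and 1.73 CPM in ff. Both moved with their partner and stayed far below it in level. Ttc33, opposite Ptger4, was closer to its partner in level. It had 24.5 and 24.2 CPM in dd against 22.5 and 23.0 CPM in ff and was not called. Without strand, reads of the overlapping parts cannot be told apart.

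The genes whose pattern over the 4 libraries was most like that of a called member were found by the root mean square distance of centred log2 CPM, among 11964 genes with a mean of at least 5 CPM. They were Tmem221, Peli3 and Scnn1a for Ptgs1 (distances 0.0548, 0.0682 and 0.0878), and Sez6l, Cd79a and Derl3 for Ptgs2 (0.0964, 0.133 and 0.154). Scnn1a encodes a subunit of the epithelial sodium channel, and Cd79a the immunoglobulin-associated CD79A antigen. For Ptgfr they were Il3ra, Tmem26 and Lyl1 (0.0280, 0.0410 and 0.0413), and for Ptger3 Lrrc32, Coro6 and Dpf1 (0.0261, 0.0284 and 0.0372). With 4 libraries in 2 groups, this measure depends strongly on the size of the group difference, and it is a description only.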

How the data were processed

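Poly-A RNA of 4 whole-uterus libraries was sequenced; per the submitters' processing notes STAR, edgeR and mm10 were used, without versions, and the sources used here name no counter, annotation or strand setting. The deposited table holds whole-number counts, rescaled counts (a signal column of the authors, not tested), FPKM as the authors computed them per the file headers, a fold or ratio of dd over ff, and the authors' unadjusted p-value, whose test is not given. All 54152 symbols matched GENCODE M21 (GRCm38). Totals ran from 24619850 to 32451670 counts, and 2 libraries per group limit the precision.

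Counts were tested with edgeR 4.0.16 (R 4.3.3): TMM, filterByExpr, glmQLFit and glmQLFTest, Benjamini-Hochberg adjustment over 18530 genes, called at an adjusted p under 0.05; the script was tested on simulated counts. SE is the log2 change over the square root of F, and 95% intervals come from the same fit. FPKM compare genes per length. Other settings tried were leaving out each library, the replicate number as a block, other scalings and filters, DESeq2 1.42.0, limma 3.58.1 (voom, and trend on log2(FPKM + 0.5) or log2(FPKM + 0.1)) and a threshold of 0.01. Named genes are all members, Mapk14, called pathway genes, pathway genes described by role, the 3 most similar genes of each called member and, for marker lists, the most abundant; Hsd3b1 and further uncalled pathway genes were picked as examples. Members and lists were chosen with earlier results of these data known.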

Additional observations from a re-analysis of the deposited data

How the results depend on the processing

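The direction of Ptgs1, Ptgs2, Pla2g4a, Ptges, Ptgfr, Ptger2, Ptger3 and Ptger4 was the same under every alternative run, while Ptgis and Hpgd, which were not called, changed sign with 1 library left out (Ptgis −0.0288 to 0.292, Hpgd −0.0726 to 0.516 on the log2 scale). The differences of replicate 1 minus 2 in dd and in ff had r = 0.02 across genes. With 1 difference per group, this cannot show whether replicates of the same number share a batch. The replicate block called 1531 genes, against 1554 without it. It gave 3 members higher, Pla2g4a being added (edgeR adjusted p = 0.0181), and 2 lower, and changed no other call among the members. With the block the SE was lower for Ptgs1 (0.13 against 0.23) and Pla2g4a (0.17 against 0.42) but higher for Ptgfr (0.20 against 0.19). Leaving out 1 library gave 90 to 1198 called genes, 0 to 2 members higher, 0 to 1 members lower, 0 to 3 pathway genes higher and 0 to 1 lower, with the fewest without ff replicate 1; those fits have 1 library in a group, assumed to vary like the other group. No filter on low counts gave 2947 called genes and 5 pathway genes higher and 3 lower, and DESeq2's Wald test 3001 called genes and 5 pathway genes higher and 4 lower. On log2(FPKM + 0.5), limma-trend called 1 member higher, 1 lower and 0 pathway genes lower; on log2(FPKM + 0.1) 0 members lower and 0 pathway genes lower; limma-voom 0 pathway genes lower. At an adjusted p under 0.01, 10 genes were called and 0 members or pathway genes in either direction. The cause of these shifts was not tested. The number of libraries, 2 per group, limits the precision of every change given here.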
